A study of Mus musculus with 16 samples.

Results

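The comparison described here sets kidneys of mice labelled C3-/- against wild-type (WT) kidneys, all from animals given PBS. It uses 8 of the 16 libraries of the series, 4 per genotype, and takes in the 18035 of 20525 genes whose normalized count reached 10 in 4 or more of the 16 libraries. In the whole series, C3-/- and WT mice received PBS or an intramuscular injection of glycerol that induces rhabdomyolysis, a breakdown of skeletal muscle. RNA from frozen kidney sections of 30 µm was sequenced. All 4 WT PBS and 4 C3-/- PBS libraries were labelled with the strain C56BL/6, spelled so, and with an age of 8 weeks, and PBS is the only agent the labels give them. The labels do not give the sex, the time after PBS, the part of C3 that was deleted, whether WT animals were littermates, or whether each library came from its own animal. The p-values below therefore measure the spread between these libraries, which may in part be technical. In bulk kidney sections, fewer cells of a type and less RNA per cell cannot be told apart.

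C3 is the protein on which the classical, lectin and alternative pathways of complement converge. Its cleavage yields C3b, which marks surfaces, and C3a, which signals through its own receptor, and regulators such as CD55 and CD59 limit the cascade on host cells. The liver makes most circulating C3, and kidney tubule cells make C3 locally. The mouse kidney is also a strongly sex-dimorphic organ: androgens and growth hormone set the levels of many proximal tubule carriers and cytochrome P450 enzymes.

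C3 transcripts were present in every C3-/- library after PBS, at higher levels than in WT. The C3 gene (ENSMUSG00000024164, GRCm38 chr17:57203970-57228136, minus strand) had normalized counts of 335, 361, 471 and 425 in WT PBS 1 to 4. In C3-/- PBS 1 to 4 it had 819, 1140, 860 and 564. The groups did not overlap, and C3-/- PBS 4 was the nearest to WT. The log2 difference was 1.05 ± 0.20 (SE, n = 4 against 4), with an adjusted p of 0.00629 in limma and an exact two-sided permutation p of 0.0286, the smallest that the 70 arrangements allow. The difference of C3-/- PBS 4 alone from WT was 0.51. In a fit of all 16 libraries, which called 402 genes (2.23%) for this contrast, the log2 difference was again 1.05. Its adjusted p was 0.442 in limma, and the spread in that fit also came from the glycerol libraries. Without the 3 glycerol libraries whose description number repeats another's, the adjusted p was 0.00968. That fit called 1675 genes higher and 1806 lower. A gene-level count does not say which part of C3 was read, so these values check the genotype labels in no direction.

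The C3-/- PBS libraries were not alike in transcripts from the sex chromosomes. Ddx3y, a Y-linked RNA helicase, had 1729, 1877, 2302 and 2025 in WT PBS 1 to 4. It had 0, 1.1, 0 and 1396 in C3-/- PBS 1 to 4. Xist, the RNA that coats the inactive X chromosome, had 5.3 to 29.0 in the WT PBS libraries, 17873, 16098 and 16878 in C3-/- PBS 1 to 3, and 24.0 in C3-/- PBS 4. All 4 WT PBS libraries and C3-/- PBS 4 thus held Y-linked transcripts, while C3-/- PBS 1 to 3 held Xist and almost no Y-linked transcripts. Genotype and sex-chromosome transcripts cannot be told apart in C3-/- PBS 1 to 3. C3-/- PBS 4 is the only PBS library in which the C3-/- label goes with Y-linked transcripts, so many of the results below give its values apart. On the first principal component, which held 58.5% of the variance, WT PBS lay at -53.5 to -45.2, C3-/- PBS 1 to 3 at 61.1 to 62.6 and C3-/- PBS 4 at 12.4. On the second (14.6%) C3-/- PBS 4 lay at -67.6 and the other libraries at 4.2 to 17.1.

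After PBS, 2247 genes were higher and 2332 lower in C3-/- than in WT at an adjusted p below 0.05 in limma (called genes). That is 25.4% of the genes tested, 12.5% higher and 12.9% lower. At least 2-fold changes were held by 513 of the higher and 659 of the lower genes (6.5% of the tested genes together), and the median log2 difference of all tested genes was 0.02. For 4873 genes (27%) every C3-/- library lay on 1 side of all WT libraries. Without C3-/- PBS 4 the calls rose to 3218 higher and 3478 lower (37.1%). When a term for Y-linked transcripts entered the fit, so that the genotype difference rested on C3-/- PBS 4 against WT and that lone library was assumed to vary like the others, 755 genes were higher and 850 lower (8.9%). Of the 4579 called genes, 1158 were also called in that fit in the same direction, and 93 had the opposite sign in C3-/- PBS 4. Of 131 named genes besides C3 that were called with the 8 PBS libraries, 84 were no longer called in the fit of all 16 libraries. Among them were Aqp4, Slc13a2, Lyz2, H2-Ab1 and Hsp90aa1 (adjusted p = 0.742, 0.48, 0.536, 0.915 and 0.165 in limma). Both fits gave these genes the same log2 differences (1.16, 1.06, -1.17, -0.79 and -1.02), while the spread in the larger fit also came from the glycerol libraries. Without the 3 glycerol libraries with a repeated number, 12 of the 131 lost the call.

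The large differences of C3-/- PBS 1 to 3 from WT fell into genes that C3-/- PBS 4 shared and genes that it did not. Among 1522 genes called without C3-/- PBS 4 and at least 2-fold apart, C3-/- PBS 4 lay near the other C3-/- libraries for 588 (38.6%), near WT for 495 (32.5%) and between for 439 (28.8%). Near WT here means less than 0.25 of the way from the WT mean to the mean of C3-/- PBS 1 to 3 on the log2 scale, and near C3-/- more than 0.75 of the way, limits set after the values were seen. The glycerol libraries, which entered this choice only through the filter on low values, differed between these gene sets. Of the 588 genes, 253 (43%) had C3-/- and WT glycerol groups that did not overlap and lay in the same order as after PBS, against 77 of the 495 (15.6%) and 9.1% of all tested genes. C3-/- glycerol 1 and 2 held Xist and no Y-linked transcripts, and C3-/- glycerol 3 and 4 held Y-linked transcripts. These pairs did not overlap and lay in the order of the PBS libraries for 294 of the 495 genes (59.4%) and for 80 of the 588 (13.6%), against 12.9% of all tested genes. The 588 genes were chosen for a C3-/- PBS 4 near C3-/- PBS 1 to 3, so their order can rest on small differences. Their share is thus partly set by that choice.

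**Figure D1:**
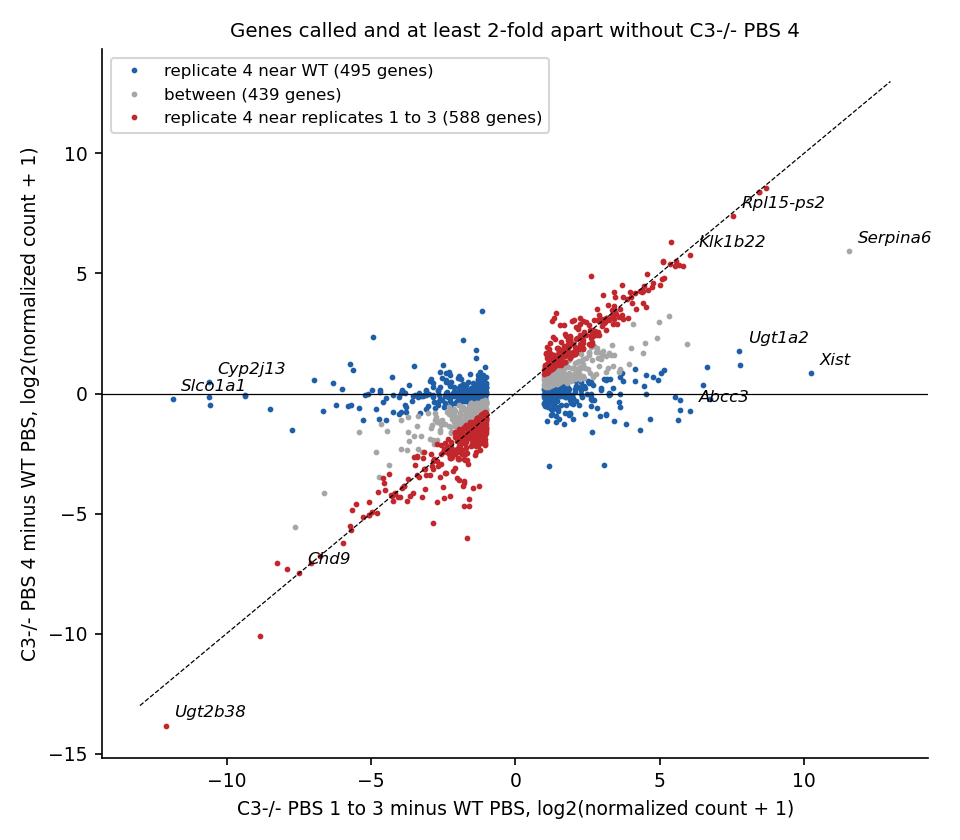
Each point is a gene called without C3-/- PBS 4 and at least 2-fold apart from WT (1522 genes). The horizontal axis is the mean of C3-/- PBS 1 to 3 minus the WT PBS mean and the vertical axis is C3-/- PBS 4 minus the WT PBS mean, both on the log2(normalized count + 1) scale. The dashed line marks equal differences. Red genes (588) follow it, blue genes (495) lie along 0, and grey genes (439) lie between.

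The 15 largest rises and 15 largest falls with group values that do not overlap were taken from named genes with a mean of at least 50 over the 8 libraries. C3-/- PBS 4 lay near C3-/- PBS 1 to 3 for 18 of these 30 genes, 10 rises and 8 falls. It lay near WT for 10 genes, 3 rises and 7 falls. The glycerol groups did not overlap and lay in the same direction for 13 of the 15 rises and 9 of the 15 falls. The same held for 9.1% of all tested genes and 17.9% of the called genes. The choice of genes with all 4 C3-/- libraries on 1 side of WT favoured changes that C3-/- PBS 4 shared.

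**Figure D2:**
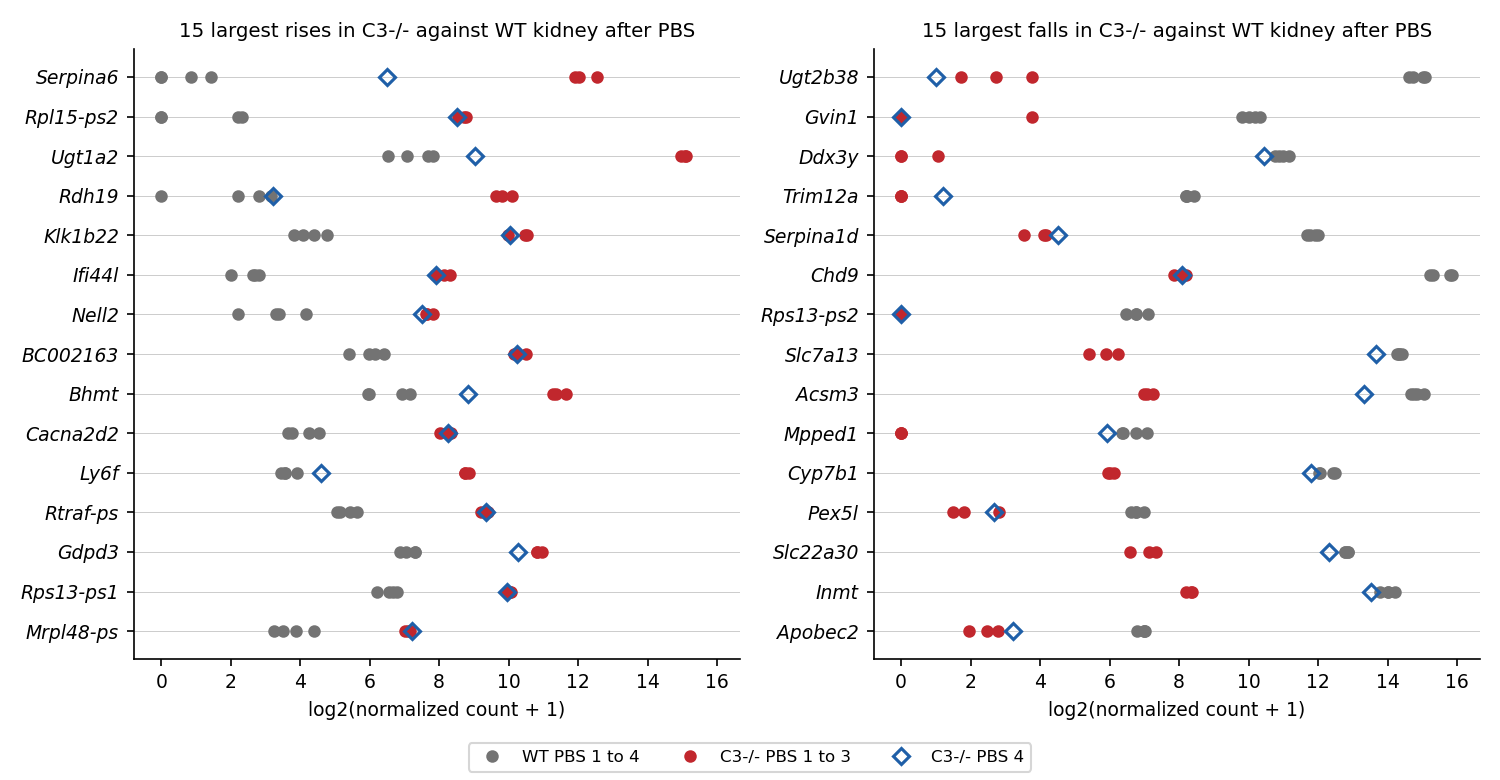
Normalized counts, as log2(normalized count + 1), of the 15 genes with the largest rise (left) and the largest fall (right), 1 point per PBS library. Grey points are WT PBS 1 to 4, red points C3-/- PBS 1 to 3 and open blue diamonds C3-/- PBS 4. The diamond lies with the red points for Klk1b22, Ifi44l or Chd9 and near the grey points for Rdh19, Slc7a13 or Cyp7b1.

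Chd9, Ugt2b38, Serpina1d, Trim12a, Pex5l, Apobec2 and Gvin1 were low in all 4 C3-/- libraries. Chd9 (GRCm38 chr8:90828352-91054516, plus strand), a chromatin remodelling helicase, had 56713, 40205, 38391 and 59528 in WT PBS 1 to 4. It had 292, 231, 278 and 270 in C3-/- PBS 1 to 4, so that its WT mean was 182-fold higher. No C3-/- library came near the lowest WT library. The log2 difference was -7.48 ± 0.15 (SE), with an adjusted p of 1.07e-08 in limma. After glycerol, Chd9 had 101087 to 355471 in WT and 312 to 612 in C3-/-. Only 0.527% of the 50-base stretches of its longest transcript occur in another annotated gene, and Gm45641 and Gm6658 overlap it on the opposite strand and Gm45640 and Gm45643 on the same strand. The sources used here do not say whether reads were counted by strand or how reads in overlapping genes were assigned, so reads of Chd9 and of those genes may be mixed.

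Ugt2b38, which encodes a UDP-glucuronosyltransferase, had 27209, 34560, 25169 and 33461 in the WT libraries. In C3-/- PBS 1 to 4 it had 12.7, 5.7, 2.3 and 1.0, the lowest in C3-/- PBS 4. Its log2 difference was -12.54 ± 0.50 (SE, adjusted p = 6.26e-07 in limma), and it shares 37.4% of its 50-base stretches with other genes, mostly Ugt2b5. Serpina1d, an alpha-1-antitrypsin gene of a mouse gene cluster, had 3307, 4122, 3866 and 3495 in WT and 10.5 to 21.9 in C3-/-. Its WT mean was 225-fold higher. Serpina1a of the same cluster, chosen after its values were seen, had a mean of 907 in WT and 94.7 in C3-/- (log2 difference -3.29, adjusted p = 2.33e-05 in limma). The 2 genes share 50.9% and 67.4% of their 50-base stretches with other genes, most of all Serpina1b and Serpina1c, so their single levels are uncertain. Trim12a, a tripartite-motif protein gene, had 291 to 346 in WT and 0 to 1.3 in C3-/-, and Pex5l, a relative of the peroxisomal import receptor Pex5, had 96.8 to 126 in WT and 1.8 to 6.0 in C3-/-. Apobec2, a member of the cytidine deaminase family, had a mean of 123 in WT and 5.4 in C3-/- (adjusted p = 1.08e-05 in limma). Gvin1, a very large interferon-inducible GTPase, had 900 to 1297 in WT, 12.7 in C3-/- PBS 1 and 0 in the other C3-/- PBS libraries, but 99.2% of its 50-base stretches are shared, nearly all with Gm4070.

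Several rises were also shared by all 4 C3-/- libraries. Klk1b22, a glandular kallikrein gene, had 13.2 to 26.1 in WT and 1431, 1007, 1468 and 1049 in C3-/- PBS 1 to 4. Its mean was 65.9-fold higher in C3-/- (log2 difference 5.99 ± 0.21 SE, adjusted p = 3.48e-07 in limma). Klk1, the kidney's main tissue kallikrein, went the other way, from 49661 ± 3399 (SD, n = 4) in WT to 22871 ± 2250 in C3-/-, with an adjusted p of 8.61e-05. Ifi44l, an interferon-induced gene, had 3.0 to 6.0 in WT and 236, 281, 319 and 238 in C3-/-. Nell2, a secreted protein with EGF-like repeats, had 3.6 to 16.8 in WT and 182 to 226 in C3-/-. Cacna2d2, an auxiliary subunit of voltage-gated calcium channels, had 11.5 to 22.5 in WT and 261 to 321 in C3-/-. For Klk1b22, Ifi44l, Nell2 and Cacna2d2, C3-/- PBS 4 lay within or next to the range of the other C3-/- libraries, and C3-/- and WT did not overlap after glycerol either. Gdpd3, a lysophospholipase D family member, had 117 to 158 in WT, 1796 to 1980 in C3-/- PBS 1 to 3 and 1221 in C3-/- PBS 4. Rnase4, a secreted ribonuclease chosen after its values were seen, had 256 to 302 in WT and 1925 to 2646 in C3-/- (log2 difference 2.96, adjusted p = 3.48e-07 in limma).

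Several of the largest changes were in processed pseudogenes. Rps13-ps1 rose from 110, 93.2, 102 and 72.5 in WT to 1043, 983, 1082 and 998 in C3-/-. Rps13-ps2 had 107, 87.6, 136 and 108 in WT and was listed at 0 in all 4 C3-/- PBS libraries. The parent Rps13, a protein of the small ribosomal subunit chosen after its values were seen, had a mean of 3941 in WT and 3445 in C3-/-, with an adjusted p of 0.0664. Both copies matched the whole 453-base coding part of Rps13 in the GENCODE M21 transcripts: Rps13-ps2 without a difference and Rps13-ps1 with 2. The stretch below, read 5′ to 3′ from base 310 to 429 of the Rps13 coding part, is shown because it holds both differences, in capitals, and shows how few bases separate reads of these rows.
Rps13 coding sequence: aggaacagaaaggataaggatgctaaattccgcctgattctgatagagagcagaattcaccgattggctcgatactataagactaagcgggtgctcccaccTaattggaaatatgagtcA
Rps13-ps1: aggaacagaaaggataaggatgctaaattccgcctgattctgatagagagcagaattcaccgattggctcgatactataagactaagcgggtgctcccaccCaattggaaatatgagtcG
Counted from the first base of the Rps13 coding part, these differences are T411C and A429G, the Rps13 base first. All of the 50-base stretches of Rps13-ps2 and 87.9% of those of Rps13-ps1 occur in other annotated transcripts, so these values depend on how reads with several matches were assigned, a step that the labels and headers do not describe. The same limit holds for Rpl15-ps2 (0 to 4.0 in WT, 364 to 436 in C3-/-, 84.2% shared), BC002163 (41.4 to 83.8 against 1130 to 1441, 72.6% shared, all with Ndufs5), Rtraf-ps (32.3 to 49.0 against 583 to 675, 47.4% shared) and Mrpl48-ps (8.4 to 20.1 against 128 to 149, 44.6% shared). Each of these lay apart from WT in all 4 C3-/- libraries. By annotation class, 46.2% of 52 transcribed unprocessed pseudogenes and 18% of 743 processed pseudogenes were called, against 26.6% of 14893 protein-coding genes. Called and at least 2-fold apart were 10.8% of the processed pseudogenes and 5.49% of the protein-coding genes, and large changes that C3-/- PBS 4 shared were 8.21% and 2.57%.

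Other large changes were those of C3-/- PBS 1 to 3. Slc7a13, an amino acid transporter of the proximal tubule, had 20569, 21968, 20428 and 19758 in WT. It had 41.5, 58.2 and 75.5 in C3-/- PBS 1 to 3 and 13076 in C3-/- PBS 4. The fall with all 4 libraries was -6.53 ± 1.59 (SE, adjusted p = 0.0182 in limma), and C3-/- PBS 4 differed from WT by -0.66 (adjusted p = 0.11). Cyp7b1, the oxysterol 7-alpha-hydroxylase, had 4171 to 5763 in WT, 61.0 to 69.3 in C3-/- PBS 1 to 3 and 3537 in C3-/- PBS 4. Inmt, an indolethylamine N-methyltransferase, the organic anion carrier Slc22a30 and Mpped1, a metallophosphoesterase gene, had the same order. Acsm3, a medium-chain acyl-CoA synthetase, had 26184 to 33591 in WT, 125 to 152 in C3-/- PBS 1 to 3 and 10202 in C3-/- PBS 4, which was still lower than WT (log2 difference -1.51, adjusted p = 0.000191 in limma). Of its 50-base stretches, 35.2% lie in Eri2, which overlaps it on the opposite strand.

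Among the rises, Ugt1a2, another UDP-glucuronosyltransferase gene, had 91.4 to 225 in WT, 31590 to 35268 in C3-/- PBS 1 to 3 and 527 in C3-/- PBS 4. It shares 63.7% of its 50-base stretches with Ugt1a5. Rdh19, a retinol dehydrogenase family gene, had 0 to 8.0 in WT, 801 to 1100 in C3-/- PBS 1 to 3 and 8.3 in C3-/- PBS 4. Ly6f, of the Ly6 family, had at most 13.9 in WT, 424 to 467 in C3-/- PBS 1 to 3 and 23.3 in C3-/- PBS 4. Serpina6, which encodes corticosteroid-binding globulin, had 0 to 1.7 in WT, 4146, 5924 and 3812 in C3-/- PBS 1 to 3 and 89.3 in C3-/- PBS 4. Bhmt, the betaine-homocysteine methyltransferase, had 61.4 to 143 in WT, 2493 to 3201 in C3-/- PBS 1 to 3 and 450 in C3-/- PBS 4. C3-/- PBS 4 was called higher than WT for Serpina6, Bhmt, Ugt1a2 and Ly6f (adjusted p = 0.000179, 0.0112, 0.0242 and 0.0393 in limma), and was not for Rdh19 (adjusted p = 0.47).

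Genes listed here as male-biased in kidney were mostly lower in C3-/- PBS 1 to 3 and mostly near WT in C3-/- PBS 4. Of 18 such genes tested, 15 fell and 1 rose, beside 12.9% lower and 12.5% higher among all genes, with a median log2 difference of -3.11 against 0.02. Without C3-/- PBS 4, when 37.1% of all genes were called, 17 fell. In C3-/- PBS 4 against WT the list median was -0.18, beside 0.03 for all tested genes. Slco1a1, an organic anion carrier, had 7916, 9186, 5189 and 7564 in WT, 0.9, 3.0 and 0 in C3-/- PBS 1 to 3 and 6180 in C3-/- PBS 4. Cyp2j13, an arachidonic acid-metabolizing P450 family member, had 7080 to 10150 in WT, 3.4 to 7.7 in C3-/- PBS 1 to 3 and 12565 in C3-/- PBS 4. These genes, and Kap, Cyp2e1 and Cyp4b1 next, were chosen after their values were seen. Kap, the kidney androgen-regulated protein, had 677611 to 744108 in WT, 166501 to 240908 in C3-/- PBS 1 to 3 and 650329 in C3-/- PBS 4. Cyp4b1 and Cyp2e1 followed the same order, and in C3-/- PBS 4 both were within the WT range. Odc1, the first enzyme of polyamine synthesis, had 16406 to 24478 in WT, 6613 to 7271 in C3-/- PBS 1 to 3 and 16289 in C3-/- PBS 4. Aadat, an aminoadipate aminotransferase and the 1 riser, had 6408 to 7997 in WT, 62362 to 70585 in C3-/- PBS 1 to 3 and 7132 in C3-/- PBS 4 (also chosen after its values were seen).

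Of 14 genes listed here as female-biased in kidney, 6 rose and 2 fell, beside 12.5% higher and 12.9% lower among all genes. Their median log2 difference was 1.11. In C3-/- PBS 4 against WT the list median was 0.06, beside 0.03 for all tested genes. Prlr, the prolactin receptor, had 318 to 756 in WT, 7391 to 10905 in C3-/- PBS 1 to 3 and 740 in C3-/- PBS 4. Abcc3, an efflux pump for conjugated anions, had 65.7 to 80.7 in WT, 4055 to 5936 in C3-/- PBS 1 to 3 and 46.0 in C3-/- PBS 4. Both were chosen after their values were seen. Slc22a29, an organic anion carrier, had 124 to 173 in WT, 1219 to 1534 in C3-/- PBS 1 to 3 and 315 in C3-/- PBS 4. The 2 that fell were Cyp2a4, a steroid 15-alpha-hydroxylase, and Fmo5, a flavin monooxygenase chosen after its values were seen. Both lay against the name of the list, and whether they belong on it was not tested. Cyp2a4 had 10739 to 14376 in WT, 429 to 696 in C3-/- PBS 1 to 3 and 5815 in C3-/- PBS 4. Cyp2a4 shares 38.8% of its 50-base stretches, mostly with Cyp2a5. Gbp3, an interferon-inducible guanylate-binding protein gene on neither list, had 242 to 376 in WT, 1525 to 2101 in C3-/- PBS 1 to 3 and 251 in C3-/- PBS 4, and was chosen after its values were seen.

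**Figure D3:**
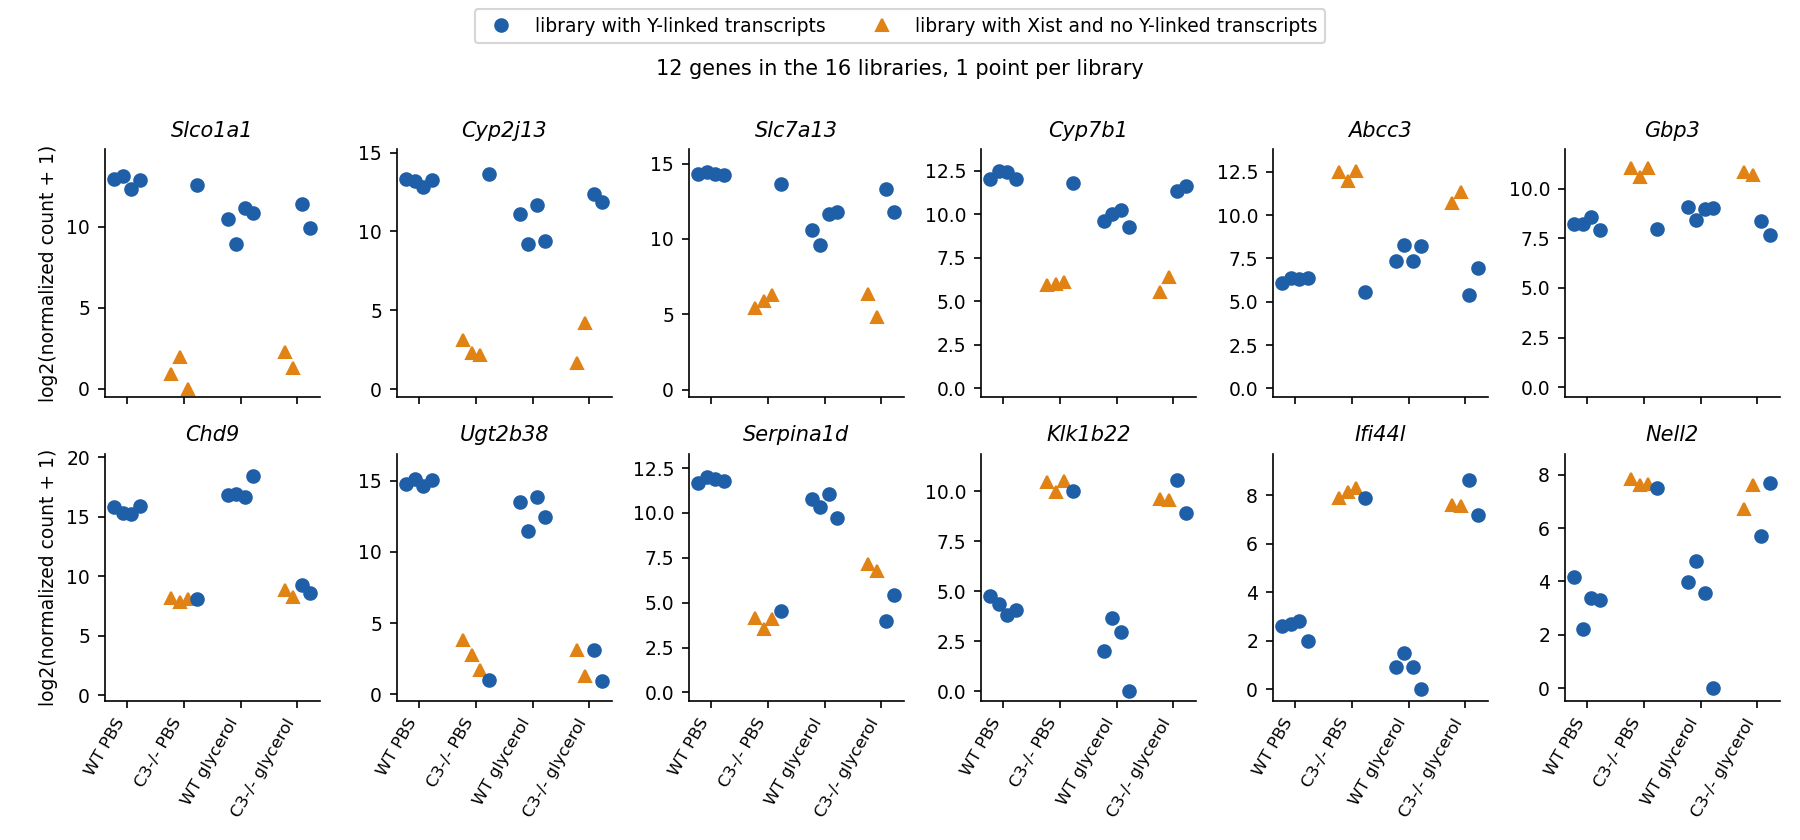
Log2(normalized count + 1) of 12 genes in all 16 libraries, 1 point per library, with blue circles for libraries that held Y-linked transcripts and orange triangles for those with Xist and no Y-linked transcripts. In the upper row (Slco1a1, Cyp2j13, Slc7a13, Cyp7b1, Abcc3, Gbp3) the C3-/- libraries split by symbol after PBS and after glycerol. In the lower row (Chd9, Ugt2b38, Serpina1d, Klk1b22, Ifi44l, Nell2) all C3-/- libraries lie apart from the WT libraries of the same treatment. The genes were chosen after their values were seen.

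Other complement genes were more often lower than higher in C3-/- kidney. Of 19 complement component genes tested, 7 fell and 2 rose, C3 among the latter (median log2 difference -0.51). Of 19 complement receptor and regulator genes, 12 fell and 1 rose (median -0.86). Among all genes 12.9% were lower and 12.5% higher. In C3-/- PBS 4 against WT, 3 components and 7 receptors and regulators were lower and none was higher, beside 4.71% lower and 4.19% higher among all genes. C7, a component of the membrane attack complex, had 137, 162, 220 and 136 in WT and 13.5, 29.6, 21.6 and 27.0 in C3-/-. Its mean was 7.14-fold higher in WT (adjusted p = 0.00015 in limma), and C3-/- PBS 4 lay within the range of the other C3-/- libraries.

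Cpn1, the catalytic subunit of carboxypeptidase N, which inactivates C3a and C5a, had 1437, 1318, 1239 and 1326 in WT, 262, 233 and 220 in C3-/- PBS 1 to 3 and 64.4 in C3-/- PBS 4. The glycerol groups lay apart in the same direction. Cd55, which speeds the decay of C3 convertases, had a mean of 546 in WT and 325 in C3-/-, with no overlap. Cd59a, an inhibitor of the membrane attack complex, had 864 to 1049 in WT and 445 to 633 in C3-/-. C4b and C1qa, of the classical pathway, had means of 151 and 395 in WT and 77.1 and 269 in C3-/-, and both were called (adjusted p = 0.00478 and 0.00516 in limma). After glycerol the groups of C7 and Cd55 also lay apart in the same direction, and those of Cd59a, C4b and C1qa overlapped. C1qa is also a macrophage gene, and macrophage markers moved with it, as given next; their part in the complement values was not tested.

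Many markers of blood-borne and resident immune cells were lower in C3-/- kidneys, C3-/- PBS 4 included. Of 18 macrophage and dendritic cell markers, 12 fell and 1 rose (median -0.71), beside 12.9% lower and 12.5% higher among all genes. In C3-/- PBS 4 against WT the median of the 18 was -0.57, beside 0.03 for all tested genes. The summed level of the 18 was 15974 to 17327 in WT and 10256 to 12546 in C3-/-. Lyz2, the macrophage and neutrophil lysozyme, had 902, 876, 1034 and 941 in WT and 402, 403, 519 and 351 in C3-/- (adjusted p = 0.000208 in limma). The class II antigen presentation genes H2-Eb1, H2-Aa and H2-Ab1 had 1.64- to 1.8-fold higher means in WT, with no overlap. Adgre1, the macrophage surface protein F4/80, had 194 to 228 in WT and 82.0 to 128 in C3-/-. The glycerol groups overlapped for Lyz2, H2-Eb1, H2-Aa, H2-Ab1 and Adgre1 (log2 differences -1.13, -0.07, 0.25, 0.15 and -0.26).

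Of 6 tested neutrophil markers, 5 fell (median -2.0), beside 12.9% lower and 12.5% higher among all genes. The summed level of the 7 neutrophil markers present in the matrix of 12 listed was 162 to 239 in WT and 40.5 to 62.1 in C3-/-. S100a8, a subunit of calprotectin, had 56.9, 46.0, 34.5 and 50.4 in WT and 11.1, 2.9, 6.9 and 1.1 in C3-/-. In C3-/- PBS 4 against WT, the median of the 6 was -2.60. Of 16 T, NK and B cell markers, 5 fell and 1 rose (median -0.58), and the median in C3-/- PBS 4 against WT was -0.73. Nkg7, a granule protein of cytotoxic lymphocytes, had 12.3 to 14.9 in WT and 3.4 to 6.0 in C3-/-. Of 7 red blood cell genes, 5 fell and 1 rose (median -1.50), and the median in C3-/- PBS 4 against WT was -1.61. Hbb-bt, an adult beta-globin gene, had 1139, 1504, 965 and 1837 in WT and 296, 260, 140 and 231 in C3-/-. The glycerol groups lay apart in the same direction for S100a8 and overlapped for Nkg7 and Hbb-bt. The summed level of the 8 red blood cell genes in the matrix was 15490 to 24706 in WT and 6015 to 11506 in C3-/-, so that blood transcripts moved with the immune markers. The part of residual blood in the immune marker values was not tested.

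Many stress-response and inflammatory genes were also lower. Of 20 immediate early and heat shock genes, 11 fell and 0 rose (median -0.82), beside 12.9% lower and 12.5% higher among all genes. The list median in C3-/- PBS 4 against WT was -1.11. Hsp90aa1, a cytosolic chaperone, had 15961, 19716, 22745 and 21828 in WT and 10102, 8933, 9269 and 11086 in C3-/- (adjusted p = 0.000591 in limma). Atf3, a stress-induced transcription factor, had 90.9 to 247 in WT and 28.7 to 49.8 in C3-/-. Fosb, an immediate early gene, varied widely within WT, at 138, 92.6, 335 and 582, and had 4.3 to 41.3 in C3-/-. Of 18 acute-phase and cytokine genes, 7 fell and 2 rose (median -0.56), and the median in C3-/- PBS 4 against WT was -0.48. Cxcl1, a neutrophil chemokine, had 119, 41.0, 89.8 and 75.1 in WT and 4.8, 15.2, 12.2 and 7.7 in C3-/-. Il1b had 85.0 to 178 in WT and 21.7 to 44.2 in C3-/-, and for Cxcl1 and Il1b the glycerol groups lay apart in the same direction. For Hsp90aa1, Atf3 and Fosb the glycerol groups overlapped (log2 differences -0.88, -0.00 and -0.54). Of 25 interferon-stimulated genes, 5 fell and 1 rose, together near the background of 25.4%. Without C3-/- PBS 4, when 37.1% of all genes were called, 5 of the 25 rose and 4 fell.

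Other lists are given by their counts, against 12.5% higher and 12.9% lower among all genes. In glutathione and Nrf2 genes 6 of 22 rose and 5 fell, in endothelial genes 3 of 15 rose and 4 fell, and in sterol synthesis 2 of 23 rose and 6 fell. Of 12 podocyte genes 3 rose and 1 fell. Without C3-/- PBS 4, when 37.1% of all genes were called, 9 of the 12 rose and 1 fell. In C3-/- PBS 4 against WT the podocyte median was -0.01. The remaining lists were class I antigen presentation (2 of 15 rose, 2 fell), circadian clock genes (5 of 18 rose, 1 fell), tubule injury genes (2 of 22 rose, 5 fell), inner medulla and thin limb genes (5 of 16 rose, 1 fell) and sex hormone and pituitary hormone signalling (4 of 22 rose, 4 fell). Their median log2 differences, in this order, were -0.04, -0.04, 0.05, 0.04 and 0.09 with the 8 libraries. In C3-/- PBS 4 against WT they were -0.05, -0.18, -0.21, -0.34 and -0.03, beside 0.03 for all tested genes. Of 8 tested gene IDs known to differ between C57BL/6 substrains, 4 fell and 0 rose. Nnt, a mitochondrial transhydrogenase deleted in part in 1 substrain, was called under neither of its 2 gene IDs (adjusted p = 0.724 and 0.88 in limma). Both IDs cover nearly the same span on the same strand, so the counting may have split their reads. A gene-level count does not say which part of Nnt was read. Entpd4b and Entpd4, paralogous genes of nucleotide-hydrolysing enzymes whose reads the counting may have split, had log2 differences of -1.47 and -1.17 (adjusted p = 0.00107 and 0.00261), and were chosen after their values were seen.

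**Figure D4:**
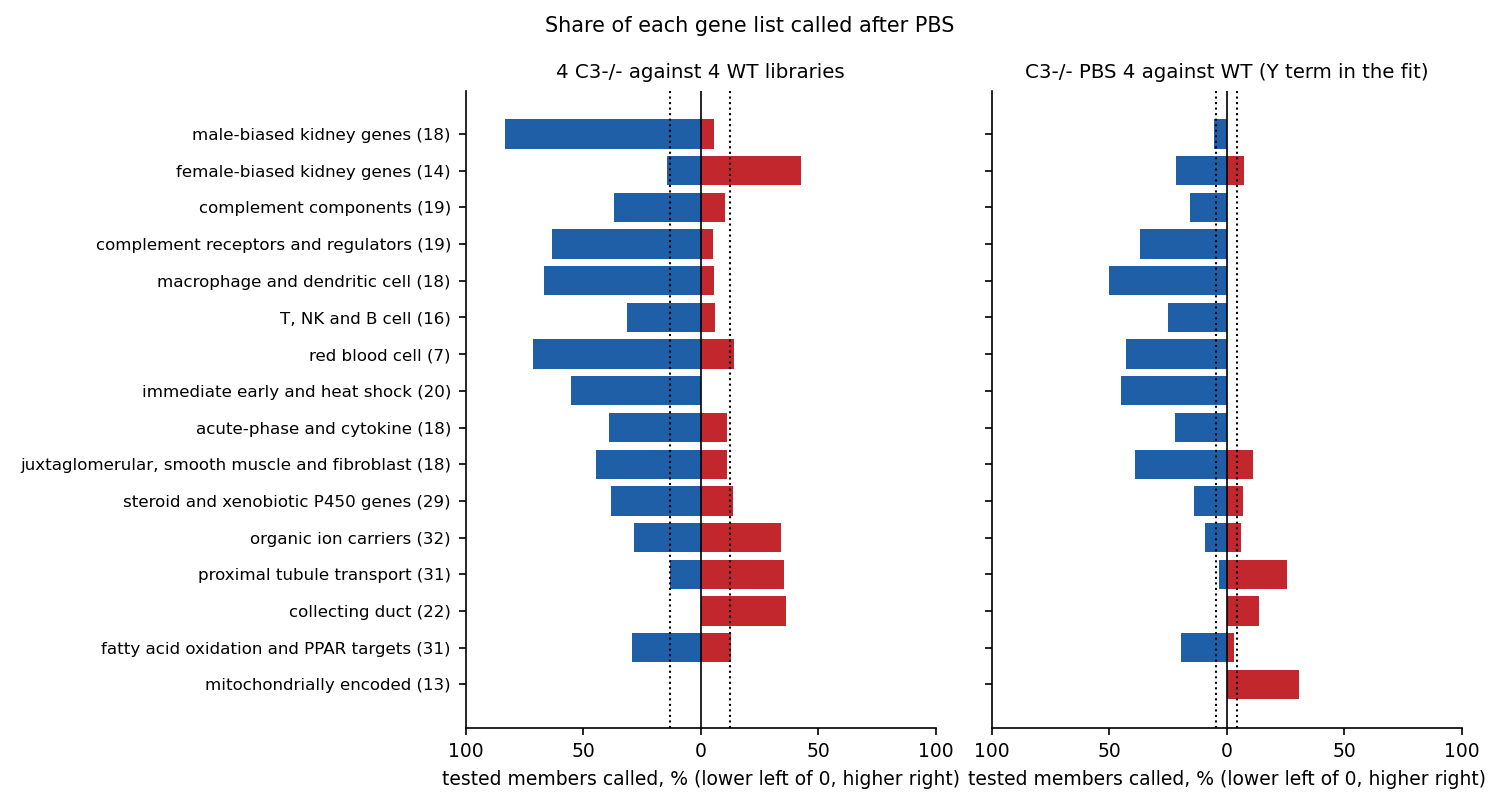
Share of the tested members of 16 gene lists called lower (blue, left of 0) or higher (red, right of 0), with the number tested in brackets. The left panel is the comparison of 4 C3-/- with 4 WT PBS libraries and the right panel is C3-/- PBS 4 against WT. Dotted lines mark the shares of all tested genes, 12.9% lower and 12.5% higher on the left and 4.71% and 4.19% on the right. The blue bar of the male-biased genes is the longest on the left and near the dotted line on the right, while those of the macrophage and heat shock lists are long in both panels.

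Transport genes of the proximal tubule, the segment that reclaims most filtered solutes, were more often higher than lower. Of 31, 11 rose and 4 fell (median 0.03), beside 12.5% higher among all genes and with the falls at the 12.9% of all genes. The list median in C3-/- PBS 4 against WT was 0.26. When C3-/- PBS 4 was left out, and 37.1% of all genes were called, 14 rose and 10 fell. Slc13a2, the citrate and dicarboxylate carrier NaDC1, had 1043, 959, 862 and 887 in WT and 1890, 2098, 2077 and 1756 in C3-/- (log2 difference 1.06 ± 0.08 SE, adjusted p = 4.52e-05 in limma). Slc7a9, a subunit of the cystine carrier, rose 1.52-fold, and Slc7a8, a neutral amino acid carrier, had a mean 1.62-fold higher in WT. Slc34a1, the main phosphate carrier of this segment, had 91669 to 115322 in WT, 74517 to 81332 in C3-/- PBS 1 to 3 and 136425 in C3-/- PBS 4, and did not pass the test (adjusted p = 0.413). Of 32 organic ion carriers, 11 rose and 9 fell (12 and 15 without C3-/- PBS 4, beside that 37.1%). The median was -0.18, and in C3-/- PBS 4 against WT it was 0.14. Slc22a8, the organic anion transporter OAT3, had 11955 to 12957 in WT and 15019 to 18391 in C3-/-. Slco3a1 had 4394 to 5396 in WT, 1408 to 1555 in C3-/- PBS 1 to 3 and 3195 in C3-/- PBS 4.

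Of 29 steroid and xenobiotic P450 genes, 11 fell and 4 rose (median -0.60), beside 12.9% lower and 12.5% higher among all genes. Without C3-/- PBS 4, when 37.1% of all genes were called, 17 fell and 5 rose. The list median in C3-/- PBS 4 against WT was 0.07. Cyp2d12 had 1971 to 2938 in WT and 486 to 729 in C3-/-, with C3-/- PBS 4 at 729. Cyp2d26 had 3227 to 3885 in WT and 10451, 11043, 8693 and 5493 in C3-/-. Among 31 genes of fatty acid oxidation and PPAR targets, 9 fell and 4 rose (11 and 9 without C3-/- PBS 4, beside that 37.1%). The median was 0.05, and in C3-/- PBS 4 against WT it was -0.01. The lipid droplet protein Plin2 had 1732, 1925, 1798 and 1662 in WT and 543, 434, 553 and 491 in C3-/- (log2 difference -1.82 ± 0.09 SE, adjusted p = 1.85e-06 in limma). Angptl4, an inhibitor of lipoprotein lipase, had 1386 to 2140 in WT and 457 to 552 in C3-/-. After glycerol, Plin2 and Angptl4 were again lower in C3-/- with no overlap. Acaa2, a mitochondrial thiolase, rose from a mean of 4062 to 6986. Cd36, a fatty acid uptake receptor chosen after its values were seen, had 11046 to 13949 in WT, 2051 to 2685 in C3-/- PBS 1 to 3 and 12834 in C3-/- PBS 4. None of the 13 mitochondrially encoded genes was called in limma with the 8 libraries, and 0 had an unadjusted p below 0.05. With C3-/- PBS 4 left out, 5 of the 13 were lower (median -0.24), beside 37.1% of all genes called. In C3-/- PBS 4 against WT the median of the 13 was 0.43.

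In the distal nephron, 8 of 22 collecting duct genes rose and 0 fell (median 0.24), beside 12.5% higher and 12.9% lower among all genes. Without C3-/- PBS 4, when 37.1% of all genes were called, 13 rose. The list median in C3-/- PBS 4 against WT was 0.12. Aqp4, the basolateral water channel of principal cells, had 1732, 1461, 1374 and 1494 in WT and 3539, 3730, 3304 and 2976 in C3-/- (adjusted p = 4.77e-05 in limma). Its glycerol groups overlapped. Scnn1b and Scnn1a, subunits of the epithelial sodium channel, rose 1.36- and 1.37-fold. In the thick ascending limb and distal tubule, 4 of 22 genes rose and 3 fell, near the shares of all genes. Leaving out C3-/- PBS 4 gave 9 rises and 4 falls, and the median in C3-/- PBS 4 against WT was 0.02. Slc12a3, the thiazide-sensitive cotransporter, had 35231 to 41441 in WT and 24706 to 30509 in C3-/-, and Pvalb, parvalbumin of the same segment, had 334 to 385 in WT and 440 to 637 in C3-/-. Umod, uromodulin of the thick ascending limb, had 139745 to 156395 in WT and 125966 to 144470 in C3-/-, with an adjusted p of 0.391.

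Of 18 juxtaglomerular, smooth muscle and fibroblast genes, 8 fell and 2 rose (median -0.35), beside 12.9% lower and 12.5% higher among all genes. The list median in C3-/- PBS 4 against WT was -0.53. Ren1, renin, had 880, 886, 980 and 1218 in WT and 3653, 2887, 2672 and 2065 in C3-/- (log2 difference 1.49 ± 0.17 SE, adjusted p = 0.000513 in limma), and C3-/- PBS 4 alone was also called higher (adjusted p = 0.0105). After glycerol, Ren1 was again higher in C3-/- with no overlap. Tagln, of smooth muscle, had 1181 to 1553 in WT and 663 to 876 in C3-/-, and the fibroblast proteoglycan Dcn had 1030 to 1664 and 562 to 747. After glycerol the groups of Tagln lay apart in the same direction and those of Dcn overlapped. The injury genes Havcr1 and Lcn2, encoding KIM-1 and NGAL, had means of 46.0 and 85.4 in WT and 17.6 and 96 in C3-/-, with adjusted p of 0.0967 and 0.927. Lcn2 had 78.9 to 105 in WT, 94.5 to 129 in C3-/- PBS 1 to 3 and 40.3 in C3-/- PBS 4, which was called lower than WT (log2 difference -1.05, adjusted p = 0.0302 in limma). Hmox1, heme oxygenase 1, had 651 to 869 in WT, 264 to 291 in C3-/- PBS 1 to 3 and 688 in C3-/- PBS 4.

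Markers of tissues that a section can hold beside kidney were counted as well. Of 9 tested urothelium genes 0 were called in limma with the 8 libraries (0 at an unadjusted p below 0.05). In C3-/- PBS 4 against WT the list median was -3.60, beside 0.03 for all tested genes. The summed level of the urothelium genes was 603 to 714 in WT, 481 to 1046 in C3-/- PBS 1 to 3 and 87.3 in C3-/- PBS 4. The 4 skeletal muscle genes in the matrix summed to 41.0 to 64.7 in WT, 205 to 227 in C3-/- PBS 1 to 3 and 54.5 in C3-/- PBS 4, and the 3 adrenal cortex genes to 209 to 222 in WT and 263 to 309 in C3-/-. The 8 fat genes in the matrix summed to 54208 to 63567 in WT and 46167 to 64220 in C3-/-, mostly Pck1, a gluconeogenic enzyme that the proximal tubule also makes, at 47396 to 55549 in WT and 40690 to 58837 in C3-/- (chosen after its values were seen). No marker in these lists that the matrix holds was at 0 in every library of a group.

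Genes near C3 on chromosome 17 were called about as often as genes elsewhere. Of 58 tested genes within 2 Mb, 16 were called (27.6%), and within 5 Mb 19 of 64 (29.7%), against 29.9% beyond 20 Mb on the same chromosome and 25.4% of all genes. By direction, 12 of the 58 were higher and 4 lower (median log2 difference 0.12), beside 12.5% and 12.9% of all genes. Beyond 20 Mb, 103 of 652 were higher and 92 lower (median 0.04). Sult1c2, a sulfotransferase, had 2457 to 2627 in WT and 5732, 5304, 5402 and 6855 in C3-/-. Pot1b, a telomere-binding protein, had 281 to 303 in WT and 68.4 to 131 in C3-/-, the lowest in C3-/- PBS 4. Rab5a, Crb3, Vmac, Plin3 and Uhrf1 were the other called genes within 5 Mb with the smallest p, besides Adgre1. Their larger mean was 1.28- to 2.1-fold the smaller. After glycerol, Sult1c2 and Pot1b lay apart in the same direction as after PBS, and Plin3 and Uhrf1 in the opposite direction. Rab5a, Crb3, Vmac and Adgre1 overlapped between the glycerol groups. Over the autosomes and the X chromosome, the share called at least 2-fold apart ranged from 3.83% on chromosome 2 to 12.9% on chromosome 14, where 55 of 669 genes (8.22%) were large changes that C3-/- PBS 4 shared.

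**Figure D5:**
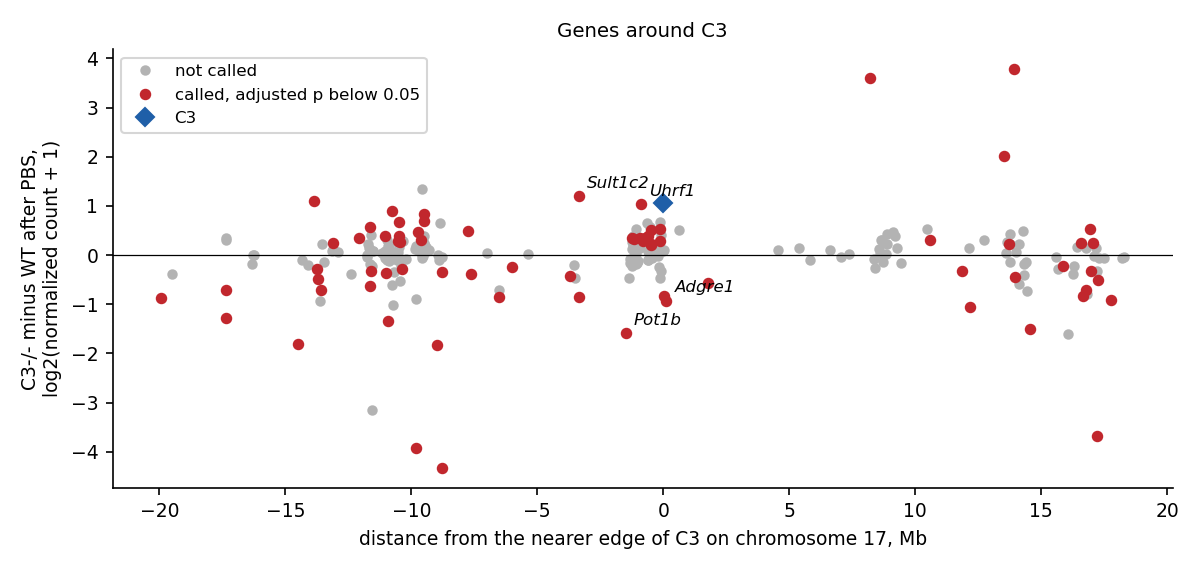
Log2 difference, C3-/- minus WT after PBS, of tested genes within 20 Mb of C3 against their distance from the nearer edge of C3 in Mb. Red points are called genes, grey points are not called, and the blue diamond is C3 at 1.05. Called genes lie on both sides of C3. Between Nudt12 at 1.77 Mb and Gm18736 at 8.21 Mb only Gm4518, Efna5, Fbxl17, Fer, Pja2 and Man2a1 were tested, and none was called. Called genes are 27.6% of the tested genes within 2 Mb and 29.5% of those within 20 Mb.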

How the data were processed

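Kidney RNA-seq of 16 libraries was deposited as 1 matrix of normalized signal, read counts that the authors had normalized with DESeq2, per the file headers and the submitters' processing notes. Those notes name STAR 2.7.1, DESeq2, R 3.6.1 and build GRCm38, and per the file headers gene models came from Ensembl release 96. The counting program, its strand setting and its handling of reads with several matches are not described in the sources used here. Whole reads could not be recovered: 1.78% to 2.11% of values per library were whole multiples of the smallest within 0.01. The depth is therefore unknown, no interval for counting error can be given, and precision rests on 4 libraries per group. Summed normalized values, in units of 1e6, were 31.4 to 32.43 in WT PBS and 28.57 to 34.01 in C3-/- PBS, and 37 genes had 16 values equal to another gene's.

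Values of the 8 PBS libraries were tested as log2(value + 1) with limma 3.58.1 in R 4.3.3, with a mean-variance trend, two-sided, and Benjamini-Hochberg adjustment over the 18035 tested genes. Called genes had an adjusted p below 0.05. A log2 difference on this scale understates the change of low genes, and folds are ratios of group means. Standard deviations are between libraries. Named genes were C3, the 15 largest rises and 15 largest falls (called, mean at least 50, groups apart, not a predicted gene name), the 8 called genes within 5 Mb of C3 with the smallest p, up to 4 members per described list by smallest p, fixed single genes, and genes said to be chosen after their values were seen. The members and lists were chosen with earlier results of these data known. Results of 2 named genes are not reported here. Lists are described by counts and medians with no test. Shared sequence was counted as 50-base stretches of a gene's longest GENCODE M21 transcript found in another gene. The fits were tested on simulated data. Alternatives were all 16 libraries, 13 libraries, a pseudocount of 8, other filters, quantile and upper quartile scaling, no trend, a replicate block, a term for Y-linked transcripts, and leaving out each library. The authors' 3 tables of their own comparisons do not hold this contrast and were not used.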

Additional observations from a re-analysis of the deposited data

Results flagged for a closer look

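In 280 groups of 4 PBS libraries (2 groups for each of 140 named genes), 43 held a library far from the others by Dixon's ratio at its 95% critical value. In 34 of the 43 that library was C3-/- PBS 4. The 140 genes include Y-linked genes, Xist and genes chosen after their values were seen. These counts can therefore not be set against a chance rate. The values of 1 library below are normalized counts, each beside the median of the other 3 libraries of its group where given.

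C3-/- PBS 4 was far above the other C3-/- libraries for genes of the Y chromosome and for the other genes that follow. Its values were 1396 for Ddx3y, 1685 for Eif2s3y, 836 for Uty and 986 for Kdm5d, against medians of 0 to 0.5. They were 13076 for Slc7a13 (median of the others 58.2), 10202 for Acsm3 (133), 59.9 for Mpped1 (0), 3537 for Cyp7b1 (63.9), 5061 for Slc22a30 (140) and 11895 for Inmt (327). For carriers and P450 enzymes the values were 6180 for Slco1a1 (0.9), 12565 for Cyp2j13 (4), 28665 for Cyp2e1 (3473), 60389 for Cyp4b1 (3990), 299 for Cyp4a12b (39.8) and 3195 for Slco3a1 (1426). Odc1 stood at 16289 (7012), Cd36 at 12834 (2438), Hmox1 at 688 (275) and Slc34a1 at 136425 (80646). Trim12a stood at 1.3 (0), a difference of about 1 normalized count.

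C3-/- PBS 4 was far below the other C3-/- libraries for Xist, at 24 (median of the others 16878), and for the X-linked Eif2s3x, at 3831 (5132). Rises of C3-/- PBS 1 to 3 that it did not reach were Serpina6 at 89.3 (4146), Ugt1a2 at 527 (34402), Rdh19 at 8.3 (888), Bhmt at 450 (2607) and Ly6f at 23.3 (427). Slc22a29 stood at 315 (1518), Aadat at 7132 (68126), Prlr at 740 (8956), Abcc3 at 46 (5628) and Gbp3 at 251 (2100). Cpn1, lower in all C3-/- libraries, was lowest there at 64.4 (233).

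In the other libraries, Gvin1 was at 12.7 in C3-/- PBS 1 (0 in the others). WT PBS 3 stood apart for Trim12a at 346 (295), Apobec2 at 109 (126), Cd59a at 864 (1028) and H2-Eb1 at 2471 (2178). WT PBS 1 stood apart for Nkg7 at 12.3 (14.9), Uty at 785 (952) and Abcc3 at 65.7 (80.1), and WT PBS 2 for Lcn2 at 105 (78.9).

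For 3 named genes the genotype difference after glycerol differed from that after PBS by the interaction term of limma over all 16 libraries. For Serpina6 the log2 difference after glycerol minus that after PBS was -7.90 (adjusted p = 0.0388): it had 5.1 to 10.4 in WT glycerol and 14.3 to 171 in C3-/- glycerol, so the order of the genotypes was the same. For Uhrf1, an adaptor of maintenance DNA methylation, it was -2.13 (adjusted p = 0.012), with 467 to 697 in WT glycerol and 180 to 421 in C3-/- glycerol, against 47.5 to 61.6 and 89.2 to 150 after PBS, so the order turned. For Rnase4 it was -1.97 (adjusted p = 0.0244), with 196 to 298 in WT glycerol and 274 to 791 in C3-/- glycerol.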

How the results depend on the processing

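With all 16 libraries in 1 fit, 187 genes were called higher and 215 lower, all of them among the calls of the 8-library fit. A term for Y-linked transcripts gave 755 and 850 (538 and 620 shared), and terms for Y-linked transcripts and for the 3 libraries whose description number repeats another's, in all 16, gave 248 and 380. Leaving out 1 library at a time gave 1368 to 3218 higher and 1455 to 3478 lower. Counts were over 1.5 times smaller without WT PBS 2 or 3 or C3-/- PBS 1, 2 (higher genes only) or 3: 1473, 1421, 1368, 1414 and 1428 higher, and, except for C3-/- PBS 2, 1524, 1495, 1455 and 1523 lower. The other settings stayed within 1.5 times.

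The C3 difference was 1.05 with an adjusted p of 0.442 in the fit of all 16 libraries, 0.51 (0.158) with the term for Y-linked transcripts and 0.73 (0.275) with both terms. In the 13 libraries numbered 1 to 13 it was 1.05 (0.00968 in limma). It was 0.90 to 1.23 when 1 library was left out, with adjusted p below 0.05 each time (0.000172 to 0.0224).

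Same-numbered WT and C3-/- PBS libraries share only a number: the correlations of their deviations were 0.04, -0.01, 0.05 and 0.05. With the number as a replicate block, 1802 genes were higher and 2004 lower, and C3 had an adjusted p of 0.0182. Of 131 called named genes besides C3, 84 kept their direction and lost the call in all 16 libraries, 44 with the term for Y-linked transcripts, 73 with both terms, 12 in the 13 libraries numbered 1 to 13, 10 with no trend and 1 with quantile scaling. Leaving out 1 library lost 18 to 27, and 0 without C3-/- PBS 4. The call of Abcc3 was lost with the block (adjusted p = 0.0505).

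Directions turned for these values, given as log2 differences. With the term for Y-linked transcripts (C3-/- PBS 4 against WT) they were 0.02 for Kl, 0.37 for Slc34a1, -1.05 for Lcn2, 0.48 for Cyp2j13, 0.02 for Cyp4b1, -0.71 for Abcc3, 0.07 for Cd36 and -0.26 for Gbp3, and for the 2 gene IDs of Nnt 0.19 (ENSMUSG00000116207) and -0.12 (ENSMUSG00000025453). With both terms in 16 libraries they were 0.01 for Eif2s3y, 0.74 for Slc34a1, 0.42 for Nnt (ENSMUSG00000116207), -1.26 for Lcn2, 0.02 for Egf, 0.26 for Kap, 0.53 for Cyp2e1 and -0.17 for Gbp3. Quantile scaling gave 0.00 for Nnt (ENSMUSG00000116207) and 0.09 for Egf, and upper quartile scaling 0.00 for Egf. Leaving out 1 library at a time gave -0.04 to 0.03 for Egf, -0.12 to 0.01 for Nnt (ENSMUSG00000116207), -0.06 to 0.16 for Nnt (ENSMUSG00000025453), and -0.13 to 0.42 for Lcn2. Of these, Slc34a1, Nnt, Lcn2 and Egf were not called with 8 libraries. The cause was not tested. The unknown depth limits every low value.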
